A study of Mus musculus with 10 samples.

Results

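The killing genes of lymphocytes, namely the granzymes Gzma, Gzmb, Gzmc and Gzmk, perforin (Prf1), the granule membrane protein Nkg7 and Fas ligand (Fasl), were measured in single cells from mouse SW1 melanomas. They are 7 of the 32285 genes in each matrix and were chosen by name for their role in cell killing. Each was followed in 5 classes of cell barcodes set by gates on other genes. CD8 T barcodes held at least 2 UMIs (unique molecular identifiers, each standing for 1 captured transcript) of Cd3d, Cd3e and Cd3g together and at least 1 of Cd8a or Cd8b1. Other T barcodes met the same Cd3 gate with no Cd8a or Cd8b1. Natural killer (NK) barcodes held at least 1 UMI of Ncr1 or Klrb1c and no Cd3, macrophage barcodes at least 10 UMIs of C1qa, C1qb and C1qc together, and tumor barcodes at least 1 UMI of Sox10 with no Ptprc. Over all libraries these gates held 1473 CD8 T, 2438 other T, 1467 NK, 5498 macrophage and 13051 tumor barcodes among 31156 that passed the filter of at least 500 genes and at most 10% mitochondrial UMIs.

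The hosts were female C3H/HeJ mice of 4 to 6 weeks. By the labels, their SW1 melanomas grew under the skin for 10 days before treatment began. The single-cell methods of the paper give a longer time before the pretreatment cohort was taken. Control mice drank plain water and treated mice drank water with L-fucose (L-fuc) at 100 mM, although a second protocol in the labels writes the unit as nM. Cells sorted for CD45 were taken from a cohort of 3 mice before treatment, a library the labels call control day 0 and called pretreatment here, and from control and L-fuc mice at day 7 and at day 21, with 6 mice per arm in one protocol and 5 in the other. Each of these 5 groups is 1 gene expression library, and the deposited matrices are named as pools, so no difference between libraries has a replicate behind it.

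Cytotoxic T cells and NK cells kill by releasing granules onto a target. Perforin opens the target membrane, granzymes enter and cleave proteins inside, and Fas ligand on the killer surface triggers death through the receptor Fas. Granzyme A and granzyme K are tryptases encoded side by side, granzyme B cleaves after aspartate and activates caspases, and granzyme C belongs to a cluster of rodent granzyme genes next to Gzmb.

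The 4 granzyme genes lie in 2 clusters, which is why their upstream sequences are shown. On the mouse build GRCm38, Gzma spans chr13:113093825-113100981 and Gzmk spans chr13:113171608-113225908, both on the minus strand and 70.6 kb apart. Gzmc spans chr14:56231441-56234656 and Gzmb spans chr14:56258838-56262260, also both on the minus strand and 24.2 kb apart. Prf1 lies at chr10:61297833-61304680 on the plus strand, Nkg7 at chr7:43437073-43438249 on the plus strand and Fasl at chr1:161780689-161788495 on the minus strand. The 250 bases before each granzyme's RefSeq start on GRCm38.p6 follow, 5′ to 3′ on the gene's own strand. They cover chr13:113100982-113101231 for Gzma, chr14:56262335-56262584 for Gzmb, chr14:56234658-56234907 for Gzmc and chr13:113180966-113181215 for Gzmk. Capitals mark the RUNX core (TGTGGT, or ACCACA on the other strand), the AP-1 letters TGANTCA and the CRE core TGACGTCA.
Gzma: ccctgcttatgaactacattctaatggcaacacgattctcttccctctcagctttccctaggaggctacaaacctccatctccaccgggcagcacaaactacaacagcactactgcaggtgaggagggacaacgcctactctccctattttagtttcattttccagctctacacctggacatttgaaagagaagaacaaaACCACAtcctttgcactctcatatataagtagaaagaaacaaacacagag
Gzmb: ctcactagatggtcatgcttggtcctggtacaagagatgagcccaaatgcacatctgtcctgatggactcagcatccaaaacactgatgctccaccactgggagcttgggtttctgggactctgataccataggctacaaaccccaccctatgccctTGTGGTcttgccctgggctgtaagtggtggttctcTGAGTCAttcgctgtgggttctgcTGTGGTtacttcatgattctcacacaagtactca
Gzmc: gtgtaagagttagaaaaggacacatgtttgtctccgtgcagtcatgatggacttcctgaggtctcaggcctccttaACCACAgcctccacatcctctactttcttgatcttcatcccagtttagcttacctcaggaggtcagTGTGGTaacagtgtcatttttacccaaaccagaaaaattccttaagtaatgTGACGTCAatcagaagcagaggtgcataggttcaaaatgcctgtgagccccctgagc
Gzmk: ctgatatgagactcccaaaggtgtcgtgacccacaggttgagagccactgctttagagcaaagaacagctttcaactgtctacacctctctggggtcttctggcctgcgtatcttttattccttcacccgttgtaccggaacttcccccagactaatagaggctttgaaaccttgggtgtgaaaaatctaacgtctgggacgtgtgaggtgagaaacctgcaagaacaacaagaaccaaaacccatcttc

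The RUNX core stood once before Gzma (from base -50), at 2 places before Gzmb (from -93 and -34) and at 2 before Gzmc (from -174 and -108). It was not found in the window before the RefSeq start of Gzmk. It was also found before Prf1 (from -130) and Nkg7 (from -83), in all 5 of 7 members, against 14.0% of the 32851 mouse promoters in the same table, both strands searched. The AP-1 letters were found before Gzmb alone among the members (6.75% of promoters), the CRE core before Gzmc alone (1.55%) and the T-box letters AGGTGTGA before Nkg7 alone (1.12%). The ETS core AGGAAG was found before Gzmc, Prf1, Nkg7 and Fasl (29.5% of promoters) and the TATA letters TATAAA before 0 members (12.4%). Windows of 250 bases were searched throughout, and none of these letter matches was tested for binding. The Gzmk window lies inside the Gzmk span given above, so the sequence before the 5′ end of that span was not searched.

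The libraries differed widely in size. After filtering they held 1470 barcodes at pretreatment, 17897 in control day 7, 9034 in L-fuc day 7, 1573 in control day 21 and 1182 in L-fuc day 21. In that order the filter kept 85.2%, 86.3%, 59.1%, 57.1% and 82.8% of barcodes. Ratios between libraries in CD8 T and NK barcodes were also computed with looser filters of 200 genes and of 20% mitochondrial UMIs. The part of the unequal size and filtering in the ratios was not otherwise tested. The gated lymphocytes of day 21 were few: 27 and 15 CD8 T barcodes and 24 and 46 NK barcodes in control and L-fuc. Although the cells were sorted for CD45, tumor barcodes were present in every library. Between 2.42% and 8.71% of kept barcodes met more than 1 gate, and whether droplets with several cells or free RNA gave these was not tested. In addition, the libraries shared 3 to 433 barcode sequences pairwise, at most 3.12% of the smaller library. A T cell receptor was recorded for 65.8% to 88.9% of CD8 T barcodes and for 0% to 1.26% of NK barcodes. For other T barcodes the share was only 31.4% to 74.3%, and for macrophage barcodes 1.40% to 14.1%. Of the 9 NK markers, Klra8 was at 0 in every class and library.

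Tumor barcodes, which should not make these genes, were used as the background, although other classes outside the lymphocyte gates held more. At pretreatment they held 0 UMIs of 6 members and 1 UMI of Nkg7. In control day 7, in contrast, 11.9% of the 8996 tumor barcodes (median 7412 UMIs each) held a Gzma UMI and 12.1% an Nkg7 UMI, and in L-fuc day 7 11.3% and 8.74% of 2986 barcodes (median 13922 UMIs) did. The shares for Gzmb, Gzmk, Prf1 and Fasl in tumor barcodes at day 7 were between 0.502% and 3.28%. Gzma and Nkg7 thus had a background at day 7 that was not seen at pretreatment. Shares are given here both as found and after each barcode was thinned to 1000 UMIs, which lowered the tumor share of Gzma to 2.68% in control day 7 and 3.24% in L-fuc day 7.

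The members did not share 1 home. Of the 50920 Gzma UMIs in kept barcodes, 56.9% lay in NK barcodes and 9.93% in CD8 T barcodes. Gzmk was placed the other way, with 65.5% of its 3685 UMIs in CD8 T barcodes and 3.5% in NK barcodes. Gzmb was spread, with 34.8% of 9288 UMIs in NK, 19.0% in CD8 T, 19.4% in other T and 19.7% in no gate. Prf1 lay 41.0% in NK barcodes (of 5981 UMIs), Nkg7 40.7% in CD8 T (of 45984) and Fasl 34.5% in CD8 T (of 1949). Of 1770 Gzmc UMIs, 76.4% lay in other T barcodes, but a single L-fuc day 7 barcode held 850 of them and a single pretreatment barcode 111. The L-fuc barcode held 4 Ncr1 UMIs beside 7 of Cd3e, and the pretreatment barcode 0 of either.

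Gzma, the tryptase stored in granules of resting NK cells, was the member that set NK apart. In NK barcodes it stood at 1226 CPM (UMIs of the gene per 1000000 UMIs of the class) at pretreatment, 882 in control day 7, 5773 in L-fuc day 7, 1373 in control day 21 and 533 in L-fuc day 21. In CD8 T barcodes the same libraries gave 21.6, 201, 644, 0 and 0 CPM. NK was above CD8 T in 5 of 5 libraries, and the 2 sets of values overlapped only where the highest CD8 T library (L-fuc day 7) passed the lowest NK library (L-fuc day 21). In other T barcodes Gzma was at 57.1, 126, 681, 3.23 and 113 CPM, below NK in every library. The zeros at day 21 rest on few cells: 0 of 27 control barcodes allow a share of barcodes with a Gzma UMI of up to 11.1% and 0 of 15 L-fuc barcodes up to 20%, by the limit of 3 counts. These limits bound barcodes with a UMI, not cells that express the gene, and all limits and intervals cover counting error only.

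Gzmk, the tryptase encoded beside Gzma, had the opposite pattern. CD8 T barcodes held 211, 150, 199, 259 and 73.3 CPM in the same order of libraries (pretreatment, control day 7, L-fuc day 7, control day 21, L-fuc day 21), and 43.1% to 55.6% of them had a Gzmk UMI. NK barcodes held 18.7, 10.1, 18.3, 18.3 and 9.17 CPM, so the highest NK library was below the lowest CD8 T library. Other T barcodes lay between, at 99.2, 30.0, 34.2, 45.2 and 5.96 CPM. The CD8 T level exceeded the other T level in 5 of 5 libraries, by 2.12 to 12.3 times.

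Gzmb, which activates caspases in the target, was less bound to a class in these gates. NK barcodes held 93.6, 72.8, 659, 113 and 109 CPM, CD8 T barcodes 99.3, 69.4, 192, 158 and 24.4, and other T barcodes 111, 31.3, 157, 120 and 1.49. NK was above CD8 T in 3 of the 5 libraries, and only in the L-fuc libraries by more than the counting intervals. Among barcodes that met 1 gate alone, NK was above CD8 T in 5 of 5 libraries (1.49 to 72.2 times). It was also above other T in 5 of 5 (1.28 to 227 times), although control day 21 held 9 such NK barcodes. Both upper ends came from L-fuc day 21, where these CD8 T barcodes held 2 Gzmb UMIs and other T 1. These are under the limit of 3 counts, so the size of those ratios is not measured. Gzmc stayed low outside single barcodes, between 0 and 22.8 CPM in CD8 T and between 0 and 13.9 in NK, with a UMI in at most 3.70% and 2.04% of barcodes. In other T the value of 55.6 at pretreatment came from the 1 barcode named above, and of the 1223 UMIs behind the 140 CPM of L-fuc day 7 the barcode named above held 850.

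Perforin, which opens the way for granzymes, stood at 122, 92.8, 465, 120 and 91.7 CPM in NK, at 53.8, 63.0, 117, 368 and 57.0 in CD8 T, and at 34.6, 21.8, 109, 407 and 96.8 in other T. NK was the highest class in the first 3 libraries, whereas both T cell classes were above it in control day 21. That excess was not seen among barcodes that met 1 gate alone. There NK was above CD8 T in 5 of 5 libraries (1.20 to 49.1 times) and above other T in 5 of 5 (1.35 to 5.53 times). In control day 21, however, NK stood at 897 against 750 CPM in CD8 T, on 23 UMIs in 9 NK barcodes. On so few UMIs the order of the classes there is uncertain. The ratio of 49.1 came from L-fuc day 21 and rested on 2 UMIs in CD8 T. Nkg7, needed for granule release, was in nearly every CD8 T barcode: 93.7%, 89.2%, 94.7%, 100% and 86.7% held a UMI, and the level was 1361, 1069, 1657, 2856 and 606 CPM. In NK it was at 561, 392, 1704, 347 and 215 and in other T at 422, 328, 1029, 1848 and 344. Fas ligand was at 42.2, 40, 59.6, 113 and 24.4 CPM in CD8 T, at 18.7, 23.6, 67.7, 47.5 and 13.1 in NK and at 20, 16.4, 39.9, 90.5 and 13.4 in other T. Nkg7 and Fasl were each higher in CD8 T than in other T in 5 of 5 libraries, by 1.55 to 3.26 and by 1.25 to 2.44 times. Among barcodes that met 1 gate alone, this held for Fasl in 5 of 5 (1.54 to 2.50 times). For Nkg7 it held in 4 of 5, with ratios of 0.879 to 3.08.

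**Figure D1:**
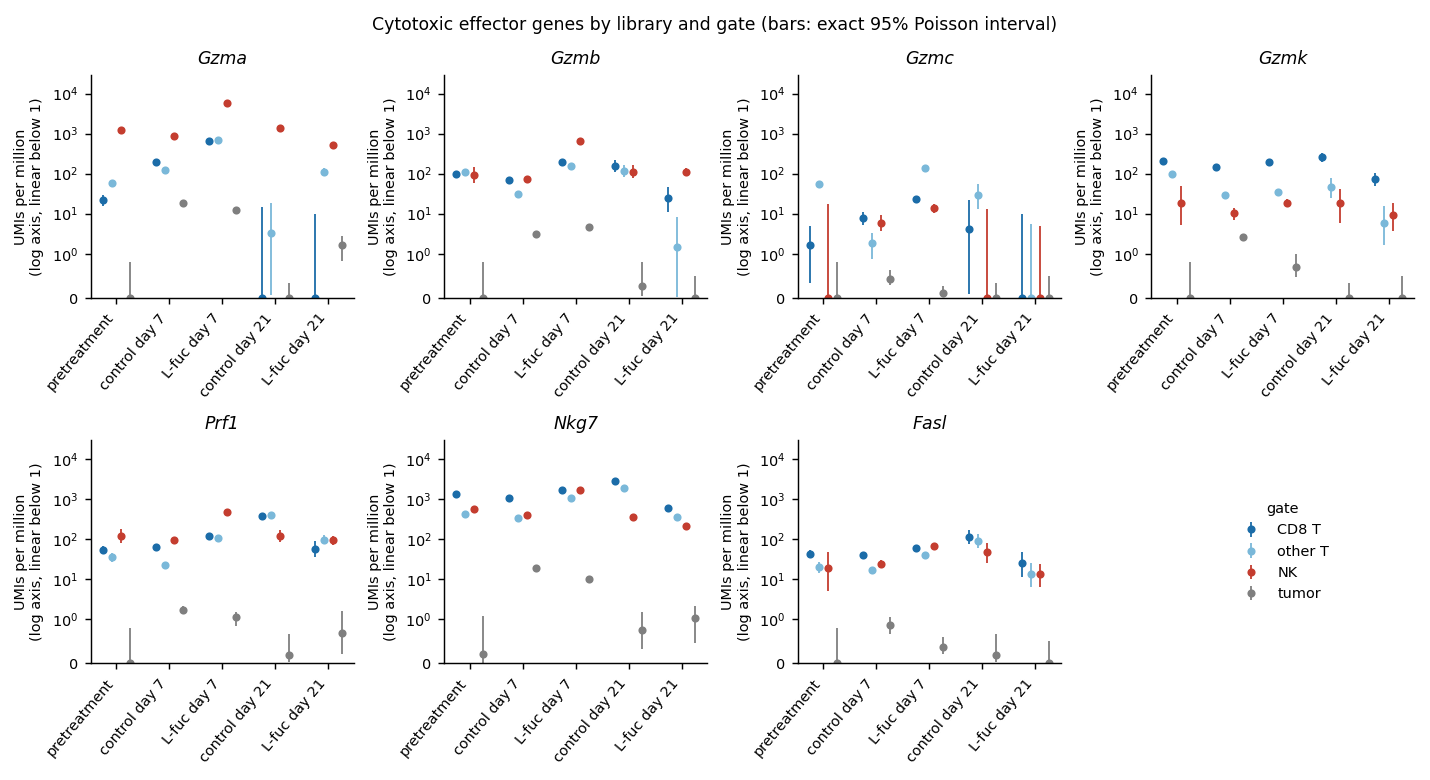
CPM (vertical axis, logarithmic above 1) of each member in CD8 T, other T, NK and tumor barcodes of the 5 libraries, with exact 95% Poisson intervals that cover counting error only. Gzma lies highest in NK in every library (533 to 5773 CPM), Gzmk highest in CD8 T (73.3 to 259), and the grey tumor points lie at or below 19.3.

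Macrophage barcodes that met no other gate held little of any member at pretreatment and day 21 (Gzma 0.254 to 0.702 CPM), but 32.7 CPM of Gzma in control day 7 and 132 in L-fuc day 7. Ordered by median over the 5 libraries, the Gzma level ran from NK (1226 CPM) to other T (113), macrophage (26, or 0.702 with 1 gate), CD8 T (21.6) and tumor (1.62). The orders that follow cover the lymphocyte and tumor classes only. For Gzmk the order was CD8 T (199), other T (34.2), NK (18.3) and tumor (0). For Nkg7 it was CD8 T (1361), other T (422), NK (392) and tumor (1.08), and for Fasl CD8 T (42.2), NK (23.6), other T (20) and tumor (0.186). The Prf1 order was NK (120), other T (96.8), CD8 T (63.0) and tumor (0.677). The Gzmb medians of 111 in other T, 109 in NK and 99.3 in CD8 T were nearly level in these gates, with 0.279 in tumor. Among barcodes that met 1 gate alone, the Gzmb medians were 881 in NK, 150 in other T and 129 in CD8 T. Fasl was then at 77.5 in NK, 55.4 in CD8 T and 28.8 in other T. Nkg7 was at 1596 in CD8 T, 1407 in NK and 839 in other T.

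The 3 lymphocyte classes were compared over the 5 libraries with edgeR's quasi-likelihood test on summed counts, the library as a block, with Benjamini-Hochberg adjustment over 10454 genes. Between NK and CD8 T, 1 member passed as higher in NK (2.35% of all genes did) and 2 as lower (3.98%). Gzma was higher by 4.42 on the log2 scale (SE 0.80, adjusted p = 0.00416) and Gzmk was lower by -3.48 (SE 0.30, adjusted p = 8.18e-06). Both calls held under all 13 alternatives run, with adjusted p of at most 0.0456 and 0.000729. Nkg7 was lower in NK (log2 -1.30, SE 0.34, adjusted p = 0.0363), but the difference was -0.27 (adjusted p = 0.649) once barcodes in more than 1 gate were left out and -0.02 when gates asked for 2 UMIs, so this call rested on the wide gates. It was also lost without pretreatment (adjusted p = 0.118), control day 7 (0.145) or L-fuc day 21 (0.0531). Gzmb (log2 0.87, SE 0.47), Prf1 (0.76, SE 0.44), Fasl (-0.52, SE 0.22) and Gzmc (-0.43, SE 0.92) did not pass.

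The NK gate of 1 UMI let in barcodes that also met another gate: at day 7, 406 of 637 control and 565 of 734 L-fuc NK barcodes met it alone. Without barcodes in more than 1 gate, Gzmb was higher in NK than in CD8 T by log2 1.93 (adjusted p = 0.0251) and Prf1 by 1.89 (adjusted p = 0.0056). In these barcodes the median NK level over the 5 libraries was 3989 CPM for Gzma, 881 for Gzmb, 644 for Prf1 and 1407 for Nkg7. Only 4 libraries entered the NK side of that test, since control day 21 held 9 such NK barcodes. The libraries differ in treatment and day. With the library as a block, the p-values rest on how far class differences vary between these unlike libraries.

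Between NK and other T, 1 member was higher (0.459% of all genes) and 1 lower (2.06%). Gzma was higher in NK by log2 3.86 (SE 0.76, adjusted p = 0.0119) and Gzmk lower by -1.28 (SE 0.31, adjusted p = 0.0402). The Gzma call was lost without the pretreatment library (adjusted p = 0.107) or without L-fuc day 7 (0.090), and the Gzmk call without any 1 of 4 libraries, without barcodes in more than 1 gate (adjusted p = 0.117) and with gates of 2 UMIs (0.538). With barcodes in more than 1 gate left out, Gzmb (log2 2.20, adjusted p = 0.0136), Prf1 (1.95, 0.00496) and Fasl (0.95, 0.00474) were also higher in NK and Gzmc lower (-3.41, 0.00145). Between CD8 T and other T, Gzmk alone passed, higher in CD8 T by log2 2.20 (SE 0.25, adjusted p = 0.0023), against 0.105% of all genes, and 0 members were lower (0.00957%). That call was lost without control day 7 (adjusted p = 0.0556) or without L-fuc day 7 (0.102). Fasl (log2 0.88, SE 0.21, adjusted p = 0.133) and Nkg7 (1.14, SE 0.33, adjusted p = 0.156) did not pass as higher. Their unadjusted p in the edgeR test was 0.00083 and 0.0040. Of the members that did not pass as lower, 1 (Gzmc, log2 -2.08) had an unadjusted p under 0.05, and DESeq2 also called 0 lower. Gzmc passed as lower without the filter on low counts (adjusted p = 0.0318). It also passed without barcodes in more than 1 gate, alone and with gates of 2 UMIs. Its lowest adjusted p over the alternatives was 0.000636, with log2 values from -3.21 to -1.45. In other T, a single pretreatment barcode held 111 Gzmc UMIs and a single L-fuc day 7 barcode 850. No Gzmc test between classes was repeated with only these barcodes left out.

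**Figure D2:**
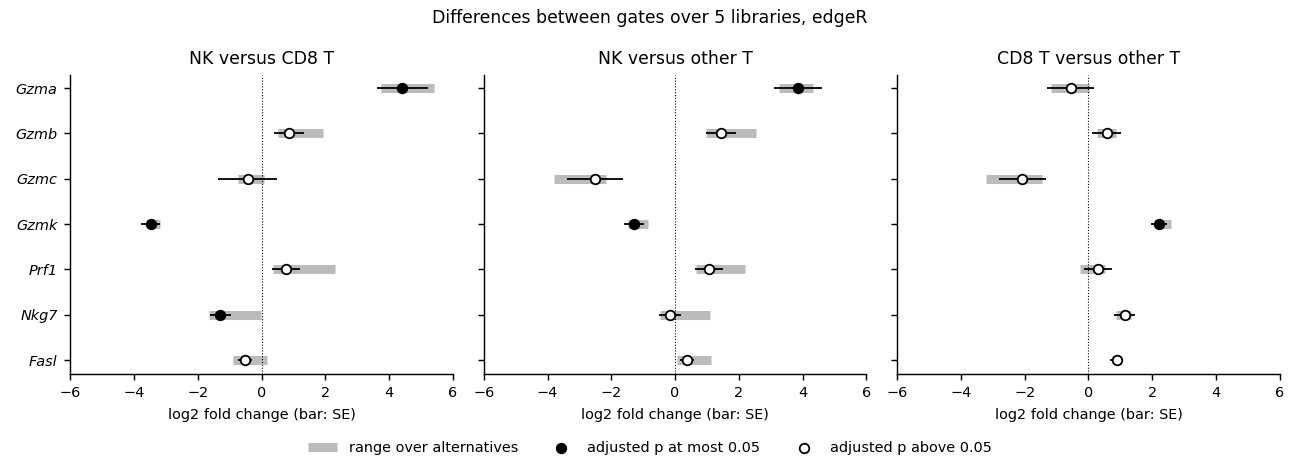
Log2 fold changes of the members between lymphocyte classes (horizontal axis) from the edgeR fit over 5 libraries, with SE bars, filled points where the adjusted p was at most 0.05, and grey bands for the range over alternatives. Gzma (4.42) and Gzmk (-3.48) are the members whose NK against CD8 T difference kept its side of 0 and its call in the whole band, while the Fasl band crosses 0.

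The design asks first whether L-fuc changed tumor lymphocytes at day 7. With 1 library on each side this comparison has no test, and ratios are given with exact 95% counting intervals. In NK barcodes (734 in L-fuc, 637 in control), 6 of 7 members were at least 2-fold higher in L-fuc, against 7.83% of 12608 genes, and 0 were at least 2-fold lower (12.8%). Gzmb was at 659 against 72.8 CPM, 9.04 times (7.93 to 10.3). Gzma was 6.54 times higher (6.30 to 6.80), Prf1 5.01 times (4.45 to 5.67), Nkg7 4.35 times (4.10 to 4.62), Fasl 2.87 times (2.23 to 3.73) and Gzmc 2.32 times (1.38 to 4.07, on 60 and 20 UMIs). Gzmk was at 18.3 against 10.1 CPM (1.80, 1.19 to 2.77). The median member differed by log2 2.12 and the median of all genes by -0.17.

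The makeup of the NK gate moved with these ratios. Of 8 NK markers measured, 7 were also at least 2-fold higher in the L-fuc NK gate (Ncr1 597 against 276 CPM, Klre1 162 against 32.5, Eomes 109 against 36.4), and the 8 detected markers summed to 3919 against 1894 CPM. Tumor genes were lower there (Sox10 108 against 247, Sparc 931 against 2438), and mast cell genes were higher (Cpa3 98.0 against 3.88, Mcpt8 30.3 against 0.895). The gate was therefore narrowed to 2 UMIs of Ncr1 and Klrb1c with no other gate met, leaving 419 and 174 barcodes. With other gates left out but 1 UMI asked, 6 members were higher (6.1% of genes) and 0 lower (14.3%). In the narrowed gate, 2 of 8 NK markers (Klrb1c and Klre1) stayed past 2-fold, the median NK marker was still higher in L-fuc by log2 0.85, and Ncr1 stood at 966 against 704.

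Within the narrowed NK gate 6 members were still at least 2-fold higher in L-fuc (5.82% of genes) and 0 lower (11.2%), with smaller ratios. Gzmb was at 974 against 222 CPM (4.39, 3.73 to 5.20), Gzma at 9468 against 2621 (3.61, 3.44 to 3.79) and Prf1 at 745 against 258 (2.89, 2.48 to 3.40). Nkg7 was 2.51 times (2.33 to 2.72) and Fasl 2.54 times (1.73 to 3.86) higher, Gzmc rested on 45 and 4 UMIs, and Gzmk was at 21.6 against 18.6 (1.16, 0.616 to 2.36). Sox10 remained lower (74.3 against 170) and Mcpt8 higher (56.1 against 1.43). With every barcode that held a Cpa3, Hdc or Mcpt8 UMI left out of the wide NK gate (689 and 620 barcodes remained), Gzmb was 9.09, Gzma 7.18 and Prf1 5.33 times higher, about as in the whole gate. The part of tumor RNA and of the remaining NK marker difference in these ratios was not tested.

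In CD8 T barcodes (638 in L-fuc, 619 in control) the differences were smaller. Gzma, Gzmb and Gzmc were at least 2-fold higher in L-fuc, 3 of 7 members against 3.45% of 13205 genes, and 0 members were lower (6.72%). Gzma was at 644 against 201 CPM (3.21, 2.99 to 3.46) and Gzmb at 192 against 69.4 (2.77, 2.44 to 3.15). Gzmc (22.8 against 7.68, 2.97 times) rested on few barcodes: 8 of 638 and 7 of 619 held a UMI, and the ratio was 1.31 without barcodes that held Cpa3, Hdc or Mcpt8. Prf1 was 1.86 times (1.62 to 2.14), Nkg7 1.55 times (1.5 to 1.6), Fasl 1.49 times (1.24 to 1.79) and Gzmk 1.33 times (1.21 to 1.46) higher. With barcodes in more than 1 gate left out, 3 members were still higher (2.51% of genes) and 0 lower (7.37%). The Gzma ratio was then 2.74 and the Gzmb ratio 2.63, while Gzmk, Prf1, Nkg7 and Fasl were between 1.22 and 1.35. In the CD8 T gate 2 of 8 NK markers were also at least 2-fold higher in L-fuc (median log2 0.78, or 0.52 with 1 gate, where 0 of 8 passed). The mast cell protease Cma1 was at 47.9 against 5.87 CPM and Sparc at 378 against 857, and the part of these genes was not tested.

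In other T barcodes (1182 in L-fuc, 878 in control) 6 of 7 members were at least 2-fold higher in L-fuc (6.65% of genes) and 0 lower (9.59%). Gzma was at 681 against 126 CPM (5.42 times), Gzmb at 157 against 31.3 (5.02), Prf1 at 109 against 21.8 (4.98), Nkg7 at 1029 against 328 (3.14) and Fasl at 39.9 against 16.4 (2.43), while Gzmk was 1.14 times (0.937 to 1.38). Behind the Gzmc ratio of 77.0 were 1223 UMIs in L-fuc, 850 of them in the single barcode described above, and 10 in control. Of 8 NK markers, 6 were also at least 2-fold higher in the L-fuc other T gate (median log2 1.78), and their part was not tested. Barcodes outside the lymphocytes also differed at day 7. In macrophage barcodes of 1 gate Gzma was at 132 against 32.7 CPM and Gzmb at 25.1 against 4.35, and 3 members were at least 2-fold higher in L-fuc (2.06% of genes) and 1 lower (10.4%). In tumor barcodes 0 members were higher (2.63%) and 3 lower (5.84%), with Gzma at 12.6 against 18.6. For Gzma these 2 classes, which should lack it, thus differed in opposite directions.

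**Figure D3:**
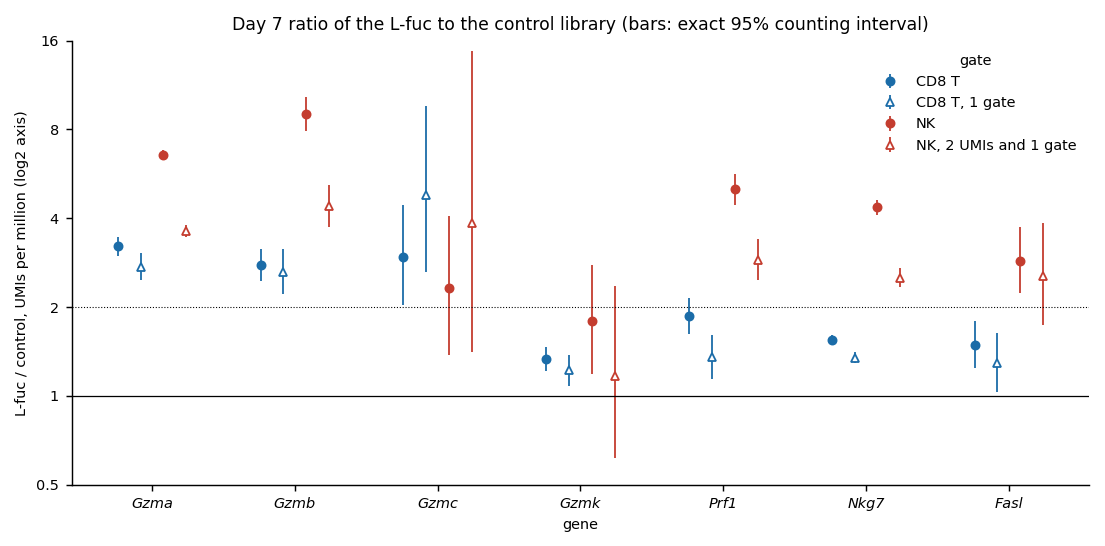
Ratio of the L-fuc to the control library at day 7 (vertical axis, log2 scale) for each member in CD8 T and NK barcodes, and in the same gates after narrowing (open triangles), with exact 95% counting intervals. Gzmb reaches 9.04 in NK and 4.39 in the narrowed gate, Gzma 6.54 and 3.61, while Gzmk stays below 2 in all 4.

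Shares of positive barcodes were compared with depth held equal. After thinning to 1000 UMIs, Gzma was found in 64.0% of NK barcodes in L-fuc day 7 and in 29.5% in control day 7 (70.6% and 42.1% before thinning), and Gzmb in 32.4% and 7.81% (45.4% and 14.8%). Median depth of the NK barcodes was 3694 UMIs in L-fuc and 3269 in control. In CD8 T barcodes the thinned share of Gzma was 16% in L-fuc and 10.7% in control (28.4% and 24.4%), and of Gzmk 20.4% and 15.5% (55.3% and 45.1%), at median depths of 6486 and 4867 UMIs. All of these lay above the thinned tumor shares, which were 3.24% and 2.68% for Gzma, 0.742% and 0.357% for Gzmb and 0.202% and 0.301% for Gzmk. Tumor was the only class outside the lymphocytes set beside them. Before thinning, a Gzma UMI was found in up to 11.7% of macrophage barcodes of 1 gate, over the 5 libraries. In barcodes that met no gate, whose cell types were not set, it was found in up to 24.1%. The CD8 T class differed in Gzma more by CPM than by share of barcodes.

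**Figure D4:**
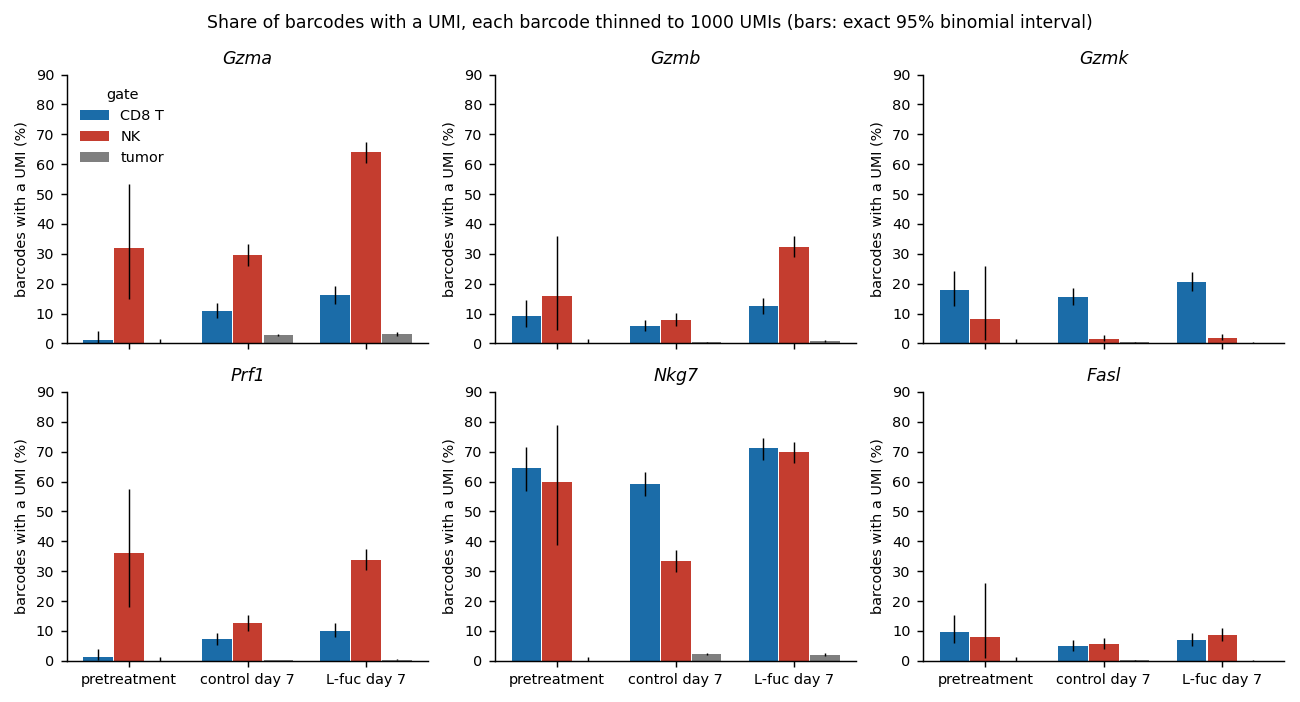
Percentage of CD8 T, NK and tumor barcodes with a UMI of 6 members (vertical axis) after thinning each barcode to 1000 UMIs, in the pretreatment, control day 7 and L-fuc day 7 libraries, with exact 95% binomial intervals. The NK share of Gzma is 64.0% in L-fuc day 7 and 29.5% in control day 7, and the grey tumor background for Gzma appears at day 7 only.

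Within NK barcodes of day 7, Gzmb was found more often where Gzma was found. In the thinned data of control day 7, 22.7% of Gzma-positive NK barcodes held Gzmb and 1.58% of Gzma-negative ones did. In L-fuc day 7 the shares were 48.0% and 4.63%. These are values of the wide NK gate, which also held barcodes that met another gate. In the narrowed gate of 2 UMIs and no other gate, the thinned shares were 27.0% and 2.78% in control day 7. They were 49.4% and 2.25% there in L-fuc day 7. CD8 T barcodes of L-fuc day 7 had the same direction (37.3% and 7.68%). For Gzmk and Gzmb in NK the picture differed. The thinned share of Gzmb was 23.1% in Gzmk-positive NK barcodes and 32.6% in the rest in L-fuc day 7. In control day 7 it was 10% and 7.78%, with 3 and 1 barcodes holding both genes in L-fuc and control. The thinned share of Gzmk in CD8 T was 16.7% among Gzma-positive barcodes against 15.4% among the rest in control and 19.6% against 20.6% in L-fuc. Before thinning it was 49.7% against 43.6% and 60.8% against 53.2%. The proportion between members also separated the classes: for each Nkg7 UMI there were 2.25 Gzma UMIs in NK and 0.188 in CD8 T in control day 7, and 3.39 and 0.389 in L-fuc day 7. Tumor barcodes held 0.967 and 1.29, between the NK and the CD8 T ratios in both libraries.

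The L-fuc ratio in CD8 T barcodes was seen across their subsets. Gzma was between 2.67 times (barcodes with a Tcf7 UMI) and 3.59 times (barcodes with no Pdcd1) higher in each of the 11 subsets made by Mki67 or Top2a, Tcf7, Pdcd1, Havcr2 and T cell receptor. It was 3.06 times higher in barcodes whose clonotype appeared once (501 against 163 CPM) and 3.15 times in those whose clonotype appeared at least 2 times (553 against 176). Gzmb was less even: 1.44 times (1.11 to 1.89) where the clonotype appeared once and 4.17 times (3.35 to 5.24) where it was shared. The subsets share their libraries, and these ratios cover counting error only.

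Before treatment, the CD8 T barcodes differed by more than 1 mark. The 88 barcodes with a UMI of Pdcd1, the gene of the inhibitory receptor PD-1, held 139 Gzmb CPM against 48.3 in the 86 without, 297 against 100 of Gzmk and 1915 against 647 of Nkg7. Gzma was at 1.97 against 47.0 CPM, on 2 and 37 UMIs, since 7 of the 174 barcodes held any. Barcodes without Tcf7 stood against those with it at 166 and 34.8 for Gzmb and 325 and 101 for Gzmk. Nkg7 was at 2018 and 729 there, and Gzma at 5.66 and 37.0. Havcr2 did not divide Gzmb, at 97.5 with and 100 without, but Gzmk was at 330 and 152 and Nkg7 at 1831 and 1130. Expanded clones had the same profile: 56 barcodes whose clonotype appeared at least 2 times held 258 Gzmb, 411 Gzmk and 2601 Nkg7 CPM, and 97 single ones 34.3, 126 and 919. Gzma was at 1.94 against 37.4 there, on 1 and 36 UMIs. With 1 library these values compare barcodes, not mice. At control day 7 the Pdcd1 contrast was smaller, with Gzmb at 78.9 against 61.2 and Gzma at 181 against 217 in barcodes with and without Pdcd1. The clonotype contrast in Gzmb was turned there, at 51.7 CPM in shared against 74.8 in single clonotypes, while Nkg7 was at 1299 against 847 and Gzma at 176 against 163.

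Other T barcodes were divided by Trdc, a gamma-delta receptor gene, Foxp3, the regulatory T cell factor, and Cd4. Barcodes with Trdc had the highest Gzma level at day 7, at 1801 CPM in L-fuc (128 barcodes) and 555 in control (38 barcodes). Barcodes with none of the 3 genes were at 595 CPM in L-fuc (621 barcodes) and 116 in control (615 barcodes), and held 2248 of the 5944 and 426 of the 690 Gzma UMIs of the class. Barcodes with Foxp3 held Gzmb at 276 CPM at pretreatment, 75.2 in control day 7 and 215 in L-fuc day 7, and little Gzmk (26.5, 16.3 and 21.8). Barcodes with Cd4 and neither of the other genes held Gzmb at 71.9, 15.1 and 95.6 and Gzma at 1.5, 88.3 and 443 CPM. The L-fuc level exceeded the control day 7 level of Gzma and Gzmb in each of these groups.

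The change from pretreatment to control day 7 uses the same control day 7 library as the comparison above. In CD8 T barcodes 2 members were at least 2-fold higher at day 7 (23.8% of genes were) and 0 lower (3.77%). Gzma was at 201 against 21.6 CPM (9.27, 6.73 to 13.1) and Gzmc at 7.68 against 1.66 on 34 and 3 UMIs (4.61, 1.45 to 23.5). Gzmb was at 69.4 against 99.3 (0.698, 0.579 to 0.844) and Gzmk at 150 against 211 (0.711, 0.626 to 0.809), while the median gene was higher by log2 0.34. Background Gzma moved with the CD8 T value, being 18.6 CPM in tumor barcodes at control day 7 against 0 of 265 barcodes at pretreatment, at least 28.4-fold higher, and 32.7 against 0.254 in macrophages of 1 gate. With a prior of 1 UMI, all 7 members were past 2-fold higher at day 7 in tumor barcodes (18.4% of genes, and 3.05% lower) and in macrophages of 1 gate (28.2%, and 2.79% lower). The part of background in the CD8 T value was not tested. With barcodes in more than 1 gate left out, the same 2 CD8 T members were higher (26.3% of genes) and 0 lower (4.18%), with Gzma at 208 against 28.2 (7.39, 5.23 to 10.8). In other T barcodes Gzma was 2.20 times higher at day 7 (25.1% of genes) and 3 members were lower (7.06%), Gzmb at 31.3 against 111, Gzmk at 30.0 against 99.2 and Gzmc because of the single pretreatment barcode. In NK barcodes (637 and 26) 1 member, Gzmc, passed 2-fold (34.6% of genes) on 20 against 0 UMIs, a level under the floor of 14.0 CPM at pretreatment and so not detectable at this depth, and 0 were lower (11%). Gzma was at 882 against 1226 (0.720, 0.634 to 0.820).

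From day 7 to day 21 in control mice, CD8 T barcodes (27 at day 21) had 4 members at least 2-fold higher (9.93% of genes) and 1 lower (26.5%). Prf1 was at 368 against 63.0 CPM (5.83, 4.55 to 7.42), Fasl at 113 against 40 (2.83, 1.83 to 4.23), Nkg7 at 2856 against 1069 (2.67, 2.47 to 2.89) and Gzmb at 158 against 69.4 (2.27, 1.58 to 3.18). The Prf1 value moved with the gate and with 1 barcode: its log2 ratio of 2.54 was 0.27 with gates of 2 UMIs, 2.97 with barcodes in more than 1 gate left out and 1.21 without the top barcode. With gates of 2 UMIs the count past 2-fold was 2, and with barcodes in more than 1 gate left out 4 were higher (11.9%) and 1 lower (32.1%), Gzmk at 516 against 201 taking the place of Gzmb. Gzma was at 0 against 888 UMIs, at least 16.6-fold lower against the floor of 3 UMIs in the day 21 class. Tumor background of Gzma was at 0 at day 21 as well, at least 66.7-fold lower than at day 7, and its part was not tested. All 7 members were lower at day 21 in tumor barcodes (11.1% of genes, and 6.71% higher) and in macrophages of 1 gate (17.1%, and 4.41% higher). In other T barcodes (40 at day 21) 5 members were higher (12% of genes) and Gzma lower (21.7%), with Prf1 at 407 against 21.8 (18.6, 14.4 to 24.1). In the 24 NK barcodes of day 21, 0 members were higher (12%) and 1 lower (35.2%), Gzmc with 0 against 20 UMIs, not detectable at this depth, and Gzma was at 1373 against 882 (1.56, 1.39 to 1.73).

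At day 21 the L-fuc and control libraries could be compared in NK and other T barcodes only, since L-fuc held 15 CD8 T barcodes. In NK (46 and 24 barcodes) 0 members were at least 2-fold higher (13.5%) and 2 lower (7.75%): Gzma at 533 against 1373 CPM (0.388, 0.337 to 0.448) and Fasl at 13.1 against 47.5 on 10 and 13 UMIs (0.276, 0.108 to 0.681). Gzmb was at 109 against 113 (0.961, 0.629 to 1.5). The makeup of the gate moved here too, with 5 of 8 NK markers at least 2-fold lower in L-fuc (median log2 -1.08), and their part was not tested. In other T (35 and 40 barcodes) 5 members were lower in L-fuc (10.6% of genes) and Gzma was higher (12.7%), at 113 against 3.23. That Gzma difference rested on 76 and 1 UMIs, of which 15 and 1 lay in barcodes that met 1 gate alone. Prf1 stood at 96.8 against 407 (0.238, 0.174 to 0.323) and Nkg7 at 344 against 1848 (0.186, 0.159 to 0.217). Of members that reached 10 UMIs, Nkg7 in macrophages of 1 gate passed 2-fold in neither direction (6.45% of genes higher, 1.69% lower), and in tumor barcodes Gzma was higher in L-fuc on 12 against 0 UMIs (3.5% of genes higher, 1.96% lower). The CD8 T values were 24.4 against 158 for Gzmb, 57.0 against 368 for Prf1 and 606 against 2856 for Nkg7, given without a ratio because of the 15 barcodes.

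The wider machinery was read from a list of 40 genes in 7 groups, of which 33 entered the test between classes. Of these, 3 were higher and 7 lower in NK than in CD8 T, against 2.35% and 3.98% of all genes tested. The calls between classes given here used the wide gates, and the list was not tested again with narrower gates. The granzyme inhibitors Serpinb9 (log2 1.23, SE 0.22, adjusted p = 0.00372) and Serpinb9b (2.73, SE 0.44, adjusted p = 0.00173) were higher, as was the granule membrane gene Lamp1 (0.77, SE 0.21, adjusted p = 0.0461). Rab27a, which docks granules (-1.85), the death ligand gene Tnfsf10 (-1.23), the cytokine genes Ifng (-2.72) and Lta (-2.61), Fas (-1.26) and Il2ra (-2.27) were among the lower ones. Against other T, Serpinb9 (1.45), Serpinb9b (2.63) and the transcription factor gene Eomes (1.58) were higher in NK and Stx11 (-0.99), Ifng (-2.39), Lta (-2.29) and Il2ra (-3.09) lower, against 0.459% and 2.06% of all genes. Between CD8 T and other T, 0 of the 33 passed edgeR in either direction (0.105% and 0.00957% of all genes did), 6 were higher and 1 lower at an unadjusted p under 0.05, and DESeq2 called 3 higher and 0 lower.

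At day 7, 14 of the 34 list genes measured in NK barcodes were at least 2-fold higher in L-fuc and 0 lower, against 7.83% and 12.8% of all genes and beside the 7 of 8 NK markers that were higher in that gate. In the narrowed gate 4 were higher (Serpinb6b, Serpinb9b and Ifng among them) and 2 lower (Ctsl and Fas), against 5.82% and 11.2%. Serpinb9b, an inhibitor encoded near Serpinb9, was at 112 against 22.9 CPM there (4.90, 2.95 to 8.72), and Ifng at 140 against 47.2 (2.97, 2.07 to 4.40). The regulator Eomes was at 165 against 84.4 (1.95, 1.48 to 2.62) and Tbx21 at 155 against 81.5 (1.91, 1.43 to 2.57), and Prdm1 was level (27.1 against 24.3). In CD8 T barcodes 6 of 37 were higher and 1 lower, against 3.45% and 6.72%. Ifng was at 243 against 86.8 CPM (2.80, 2.50 to 3.14), Stx11 at 39.0 against 17.6 (2.21, 1.71 to 2.89) and Serpinb9 at 30.0 against 10.6 (2.82, 2.04 to 3.97). Gzmd (243 against 3 UMIs) and Gzme (91 against 2) had few UMIs in control, and Ctsl was lower (111 against 247). With barcodes in more than 1 gate left out, 2 of 35 list genes were higher and 1 lower, against 2.51% and 7.37%. Ifng and Ctsl were then not past 2-fold, and 0 of the other granzymes on the list were higher. Gzmc, Gzmd and Gzme are close copies of each other, so their values are uncertain, and whether reads were split between them was not tested. The L-fuc day 7 barcode with 850 Gzmc UMIs held 0 of Gzmd and 0 of Gzme. A control day 21 other T barcode held 8, 5 and 6 UMIs of the 3 genes.

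Over 24 sums of library and class with at least 20 barcodes, each member's level was set beside 13180 genes on the scale of log2 (CPM + 10), as a description of sums that share libraries and barcodes. Gzma ran closest with Ncr1 (Pearson r = 0.93), which the NK gate uses, Clnk (0.92) and Klrb1a (0.92). Gzmb ran with Serpinb6b (0.94), Gm19585 (0.93) and Qrfp (0.92), and Gzmk with Gm30054 (0.95), Utf1 (0.94) and Ifi208 (0.93). Prf1 ran with Sytl3 (0.98), Il18rap (0.96) and Tmem163 (0.96), Nkg7 with Ctla2a, Ms4a4b and Gimap4 (0.98 each) and Fasl with Stat4 (0.97), Sh2d2a (0.97) and Sla2 (0.96). Gzmc, with most of its UMIs in a few barcodes, reached 0.79 with Ramp3. Among the members themselves the likeness was highest between Nkg7 and Fasl (0.94) and lowest between Gzma and Gzmk (0.16), although these 2 genes are neighbours on chromosome 13.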

How the data were processed

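Droplet single-cell RNA was measured in 5 libraries, with T cell receptor libraries beside them. The authors made the deposited UMI counts per gene and barcode with Cell Ranger 3.0 against mm10 and used Seurat 4.0, per the submitters' notes, while the matrix header names Cell Ranger 7.1.0. The deposited matrices total 14439185 to 119047810 UMIs per library. Barcodes were kept at 500 genes or more and at most 10% mitochondrial UMIs, and doublets were removed by no caller. Raw UMIs were summed per library and class. Classes with at least 10 barcodes in a library were tested with edgeR 4.0.16 (R 4.3.3), the library as a block, with DESeq2 1.42.0 as an alternative, and the edgeR script was tested on simulated data. Libraries were compared as ratios with exact conditional 95% intervals, from at least 20 barcodes and, over both libraries, 10 UMIs, a prior of 1 UMI deciding which genes passed 2-fold. Shares have exact Clopper-Pearson and sums exact Poisson 95% intervals. Thinning drew 1000 UMIs from each barcode. The named genes are the 7 members, the 40 genes of the killing machinery, gate and marker genes, and the 3 genes most like each member among those with at least 200 UMIs. Some genes of that list are counted but not reported here by name. Members and lists were chosen with earlier results of these data known. UMI counts were not scaled by gene length, so levels are compared within a gene. Python 3.11.15 with numpy 2.4.6, pandas 2.3.3 and scipy 1.17.1 was used.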

Additional observations from a re-analysis of the deposited data

Results flagged for a closer look

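In 6 cases the L-fuc library lay at least 2-fold above its control at day 7 and at least 2-fold below it at day 21, each side being 1 library, and the difference between the days was not tested. Of all genes in other T, 6.65% were at least 2-fold higher at day 7 and 10.6% at least 2-fold lower at day 21. For NK these shares were 7.83% and 7.75%. The share of all genes that did both was not computed, so how unusual these cases are is not known. In other T barcodes the log2 ratio of L-fuc to control was 2.32 at day 7 and -5.11 at day 21 for Gzmb, 2.31 and -2.05 for Prf1, 1.65 and -2.42 for Nkg7, and 1.28 and -2.58 for Fasl. In NK barcodes it was 2.71 and -1.36 for Gzma and 1.51 and -1.72 for Fasl. Of 8 NK markers in the same NK gates, 7 were at least 2-fold higher in L-fuc at day 7 (median log2 1.51) and 5 at least 2-fold lower at day 21 (median log2 -1.08), and in the other T gates 6 were higher at day 7 (1.78) and 3 lower at day 21 (-0.96). Their part was not tested. The day 21 values rest on 35 and 40 other T barcodes and on 46 and 24 NK barcodes. For Gzmb in other T at day 21 they rest on 1 UMI in L-fuc and 37 in control.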

How the results depend on the processing

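Of 172 recomputed counts of members, 127 stayed within 1.5 times the reported count and 45 did not. Of 583 recomputed single values, 450 were graded the same, 74 moved, 29 stronger, 17 weaker and 13 turned in direction. Between libraries, changes of sign in values reported under 2-fold are not among these 13. On the log2 scale, Fasl for control day 7 versus day 0 in CD8 T ran from -0.88 to 0.34 over settings. For control day 21 versus day 7 in NK, Gzmk ran from -2.74 to 0.85 and Prf1 from -0.36 to 0.96. Other such values also crossed 0. The cause was not tested in any of these. NK versus CD8 T, reported as 1 member higher and 2 lower, gave 3 and 1 without barcodes in more than 1 gate, 2 and 1 with gates of 2 UMIs, and 3 and 1 with both, a setting added after seeing the data. With NK classes under 10 barcodes left out, 4, 4 and 3 libraries entered the NK side of these 3 fits. Leaving out 1 library gave 1 to 2 lower, with 1 without pretreatment, control day 7 or L-fuc day 21. CD8 T versus other T, reported as 1 higher and 0 lower, gave 2 higher with DESeq2, 3 higher and 1 lower with no filter on low counts, 2 and 1 without barcodes in more than 1 gate, 3 higher with gates of 2 UMIs, and 2 and 1 with both. Leaving out control day 7 or L-fuc day 7 gave 0 higher, and the range over libraries left out was 0 to 1. NK versus other T, reported as 1 and 1, gave 2 and 2 with no filter, 4 higher without barcodes in more than 1 gate, 5 higher and 0 lower with gates of 2 UMIs, and 3 higher with both. Leaving out 1 library gave 0 to 2 higher and 0 to 1 lower.

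Direction turned, on the log2 scale, for Fasl in NK versus CD8 T from -0.52 to 0.11 without barcodes in more than 1 gate, 0.17 with gates of 2 UMIs and 0.092 with both. Gzmc in the same comparison was 0.066 with gates of 2 UMIs. Prf1 in CD8 T versus other T was -0.12 with gates of 2 UMIs and -0.26 with both, against 0.30, and -0.012 to 0.53 over libraries left out. Gzma there ranged from -1.19 to 0.0055 over libraries left out. Nkg7 in NK versus other T was 0.60, 1.10 and 0.72 under these 3 gate settings, against -0.16, and -0.47 to 0.25 over libraries left out. Gzmc for L-fuc versus control day 7 in CD8 T was -0.036 after thinning.

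Between libraries, thinning to 1000 UMIs left 1 of 2 NK members lower for L-fuc versus control day 21. It gave 0 higher and 4 lower for NK at day 7 versus day 0, where no prior also gave 0 higher, and 2 higher for NK at day 21 versus day 7. Gates of 2 UMIs, alone and with barcodes in more than 1 gate left out, gave 1 higher for CD8 T at day 7 versus day 0. For CD8 T at day 21 versus day 7, no prior gave 0 lower, gates of 2 UMIs 2 higher, and leaving out each member's top barcode 2 lower. For NK at day 21 versus day 7, no prior gave 1 higher and 0 lower, a limit of 20% mitochondrial UMIs 1 higher, and leaving out the top barcode 2 lower. The day 7 counts for L-fuc versus control in NK and CD8 T stayed within 1.5 times the reported count in each setting run. L-fuc versus control at day 21 in CD8 T was not run, nor were the narrower gates for NK comparisons with day 0 or day 21, because too few barcodes were left. No paired analysis was possible because each group is 1 library, and each number of UMIs at day 21 and in NK at pretreatment limits what could be seen.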

Other observations

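Granzyme B was also found in barcodes with mast cell and basophil genes, most of them outside the lymphocyte gates. Barcodes with at least 5 UMIs of the mast cell and basophil genes Cpa3, Hdc and Mcpt8 held Gzmb at 1003 CPM (950 to 1058, exact Poisson) in L-fuc day 7, on 1345 UMIs in 175 barcodes, of which 37 also met a lymphocyte gate. In control day 7, 13 such barcodes held Gzmb at 545 CPM (410 to 709), and in control day 21, 15 held it at 1460 CPM (1223 to 1729), in 4 barcodes. Of the 134 UMIs behind that last value, 1 barcode held 90. In L-fuc day 21, 1 of 5 such barcodes held all 59 Gzmb UMIs. The intervals cover counting error only and not the spread between barcodes. In L-fuc day 7, 42.9% of these barcodes had a Gzmb UMI and 21.1% a Gzma UMI. This grouping of barcodes was chosen after the data were seen, and no test was run on it.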
